A study of Homo sapiens with 18 samples.

Results

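The collagen genes of the deposited table were all rows whose symbol was COL, a type number, A and a chain number, and 44 of 55765 symbols matched. They were followed in G401, a cell line from a malignant rhabdoid tumour, in 6 groups of 3 biological replicates. The control line, called WT, had been edited with CRISPR/Cas9 at the AAVS1 safe harbour site. E1 and F2 were RB1 knockout clones with both alleles disrupted, and each was a single clone, so a difference between a clone and WT cannot be told apart from a difference between clones. RB1 encodes a tumour suppressor that restrains cell cycle entry. Each line received DMSO or tazemetostat at 10 µM, which blocks the catalytic activity of EZH2, and exposure lasted 11 days. EZH2 methylates histones at silenced genes. RNA was sequenced after poly(A) selection, and values are normalized counts, meaning reads of a gene divided by the size factor of the library. In such bulk samples, fewer cells of one kind and less RNA per cell cannot be told apart.

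Collagens are secreted or membrane-anchored proteins built from α chains that wind into a triple helix, and each gene encodes 1 chain. Fibrillar types such as I, III, V and XI form the banded fibrils of connective tissue, in which types V and XI act as minor partners that set fibril width, whereas type IV forms the sheet-like network of basement membranes and type VI forms beaded filaments at the cell surface. FACIT collagens (fibril-associated collagens with interrupted triple helices, such as types IX and XII) decorate fibrils, and multiplexins (types XV and XVIII) lie at basement membranes. In the kidney, where rhabdoid tumours can arise, COL4A3, COL4A4 and COL4A5 form the mature network of the glomerular basement membrane, whereas COL4A1 and COL4A2 form the network found in nearly all basement membranes.

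The 6 type IV genes lie as 3 head-to-head pairs that start in opposite directions from a shared stretch of DNA, and the sequences of these stretches are shown because the pairs are described together. In RefSeq annotation of GRCh38.p14, 126 bases separate the starts of COL4A1 and COL4A2, 418 those of COL4A4 and COL4A3, and 379 those of COL4A6 and COL4A5. The deposited table was made on hg19 per the submitters' processing notes, and no position was carried over from it. The sequences run 5′ to 3′ on the plus strand and end at the base before the start of the plus-strand gene (COL4A2, COL4A3 or COL4A5). The first is the whole stretch between the starts (chr13:110307158-110307283), and the others are the 250 bases next to COL4A3 (chr2:227164374-227164623) and to COL4A5 (chrX:108439588-108439837). Capitals mark matches on either strand to 3 motifs. The GC box was searched as GGGCGG. The box bound by nuclear factor Y was searched as the letters of its usual name, CCAAT. The TATA box was searched as TATAAA.

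COL4A1/COL4A2: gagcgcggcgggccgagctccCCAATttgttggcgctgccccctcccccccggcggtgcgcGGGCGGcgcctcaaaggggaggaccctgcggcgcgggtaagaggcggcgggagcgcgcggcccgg

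COL4A4/COL4A3: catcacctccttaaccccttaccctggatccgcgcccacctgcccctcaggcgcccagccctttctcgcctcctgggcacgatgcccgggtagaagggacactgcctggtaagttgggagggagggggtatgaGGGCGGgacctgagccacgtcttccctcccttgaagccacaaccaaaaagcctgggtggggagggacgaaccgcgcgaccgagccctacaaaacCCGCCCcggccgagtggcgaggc

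COL4A6/COL4A5: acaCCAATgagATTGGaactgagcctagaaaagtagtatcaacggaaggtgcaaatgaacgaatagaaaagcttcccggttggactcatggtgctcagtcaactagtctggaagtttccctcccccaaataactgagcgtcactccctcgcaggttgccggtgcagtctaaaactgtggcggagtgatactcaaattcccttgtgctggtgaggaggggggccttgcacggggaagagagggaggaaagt

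The COL4A1 and COL4A2 stretch held 1 GC box and 1 CCAAT box and was 80.2% G or C. The COL4A3 stretch held 2 GC boxes, one on each strand, and was 66.4% G or C. The COL4A5 stretch held 2 CCAAT boxes, one on each strand, no GC box, and was 51.2% G or C. None of the 3 held a TATA box. RefSeq promoter windows of 250 bases before to 50 after a start matched 32 of the 44 members, with 44 windows. A GC box was in 54.5% of these and in 45% of all 35116 windows, a CCAAT box in 31.8% and 34.6%, and a TATA box in 18.2% and 11.5%. These matches describe letters only, and members with several windows were counted once per window.

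Depth was 25709489 to 39314860 reads per library. E1 DMSO replicate 3 held the lowest E1 values of COL18A1, COL6A1 and COL6A2 in DMSO, and results that rest on it are given with and without it. The targeted gene was examined first. RB1 was 2565 to 2828 in the WT libraries with DMSO, 505 to 780.3 in E1 and 804 to 861 in F2, so that both clones lay below WT and kept RB1 transcripts. EZH2, the target of the drug, was 2383 to 2560.1 with DMSO and 832 to 916 with tazemetostat in WT, and 2944 to 3579 and 2916 to 3028 in E1, and 3088 to 3373 and 2599.9 to 2717 in F2. SMARCB1, the SWI/SNF subunit whose loss defines rhabdoid tumours, had 0 reads in all 18 libraries. Markers of other cell types were summed in each library. The 4 chondrocyte markers summed to 11.4 to 24.5, 8.04 to 9.74 and 20.5 to 25.5 in WT, E1 and F2 with DMSO. With tazemetostat they summed to 9.85 to 17.7, 7.45 to 12.6 and 21.2 to 25.2. Among them SOX9, a chondrocyte regulator, had 0 reads throughout, and COMP had reads in every group. ACAN had 0 reads with DMSO and 18, 13 and 29 reads in the WT, E1 and F2 tazemetostat groups. The blood markers PTPRC and CD34 together stayed at or below 8.48. Both endothelial markers summed to 0.946 to 2.83, 2.92 to 8.93 and 1.21 to 3.11 in WT, E1 and F2 with DMSO, and to 36.5 to 43.1, 27.1 to 34.9 and 53.6 to 65.6 with tazemetostat. The 8 fibroblast and mesenchymal markers summed to 42862 to 46411, 54397 to 62859.9 and 35661 to 39779.9 with DMSO and to 64770.0 to 67089, 74442 to 81714 and 66958 to 69882 with tazemetostat. The 6 muscle markers summed to 4321 to 4804, 6991 to 11653 and 2116 to 2497 with DMSO and to 22080.5 to 23536, 27668 to 29508 and 22527 to 24409.5 with tazemetostat. The 5 epithelial markers summed to 39287 to 43898, 56761 to 85169 and 22181 to 24417 with DMSO and to 270805 to 283123, 151667 to 158520.0 and 146800.0 to 157870.0 with tazemetostat. With tazemetostat 4, 3 and 3 of the 8 mesenchymal markers were called higher in WT, E1 and F2, and 0, 2 and 1 lower. Of the 6 muscle markers 3 were called higher in each line, and of the 5 epithelial markers 2, 3 and 2 were called higher and 0, 1 and 1 lower in WT, E1 and F2. DES, MYOD1, MYOG, KRT19 and DCN had a mean under 10 normalized counts over the 18 libraries and were not tested. Of all tested genes 14.5%, 11.3% and 13.3% were called higher in WT, E1 and F2, and 6.77%, 3.78% and 3.71% lower. The endothelial, mesenchymal, muscle and epithelial sums moved with the collagen changes that follow, and their part in those was not tested.

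In DMSO the collagen output of G401 was that of a few fibrillar chains. Collagen reads made up 0.723 ± 0.0196% (SD, n = 3) of the library in WT, 0.67 ± 0.0551% in E1 and 0.653 ± 0.0158% in F2. COL11A1, the α1 chain of type XI, alone took 62.4 ± 0.963%, 58.6 ± 3.92% and 60.5 ± 1.43% of them. Per kilobase of exon, which allows levels of different genes to be compared, COL11A1 stood at 16250.0 normalized counts per kb in WT, COL3A1 at 3894, COL5A2 at 3616, COL18A1 at 2071, COL26A1 at 1718 and COL6A1 at 1251. The same 6 genes led in E1 and F2, with COL11A1, COL3A1 and COL5A2 in the same order. COL1A1, the main chain of the most abundant body collagen, stood at 65.9 per kb in WT. At the other end, 15 members had 3 reads or fewer in each DMSO group, summed over its 3 libraries, which was taken as the floor of detection. They were COL4A1, COL4A2 and COL4A6 of type IV, COL5A1, COL6A5, COL6A6, COL8A1, COL13A1, COL14A1, COL15A1, COL19A1, COL21A1, COL22A1, COL23A1 and COL24A1. With tazemetostat, 12 of the 15 were above the floor in all 3 lines, and COL21A1, COL23A1 and COL24A1 were not. A single library held 22 to 23 members at more than 3 reads in DMSO and 37 to 40 with tazemetostat. The same counts over all genes were not made, so whether collagens differ from other genes in this was not tested.

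With tazemetostat collagen reads were a smaller share of the library, and the balance of classes shifted although fibrillar genes still held most of them. For WT it was 0.509 ± 0.0134%, for E1 0.415 ± 0.0166% and for F2 0.557 ± 0.0135%, without overlap with DMSO in any line. Fibrillar genes went from 85.8 ± 0.318% to 60.8 ± 2.29% of collagen reads in WT, from 86.1 ± 3.58% to 70.7 ± 2.64% in E1, and from 85.7 ± 1.71% to 70.9 ± 1.43% in F2. The groups did not overlap in any line. Multiplexins, which were almost all COL18A1 reads, went from 7.46 ± 0.427% to 21.6 ± 1.1% in WT, and type VI from 3.6 ± 0.0499% to 12.2 ± 1.1%. In E1 they went from 9.16 ± 2.56% to 16.1 ± 1.41% and from 2.35 ± 0.586% to 7.95 ± 1.07%. In F2 they went from 5.79 ± 0.818% to 12.1 ± 0.791% and from 4.98 ± 0.76% to 11 ± 0.539%. A share also widens when other classes fall, and COL18A1 itself was not called in E1 or F2. Type IV went from 0.215 ± 0.0186% to 2.21 ± 0.0553% in WT, from 0.178 ± 0.0137% to 2.47 ± 0.0676% in E1, and from 0.176 ± 0.0176% to 2.03 ± 0.0644% in F2. With 3 libraries a group, exact permutation (two-sided) cannot go below p = 0.1, so these shares are given by their spread.

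**Figure D1:**
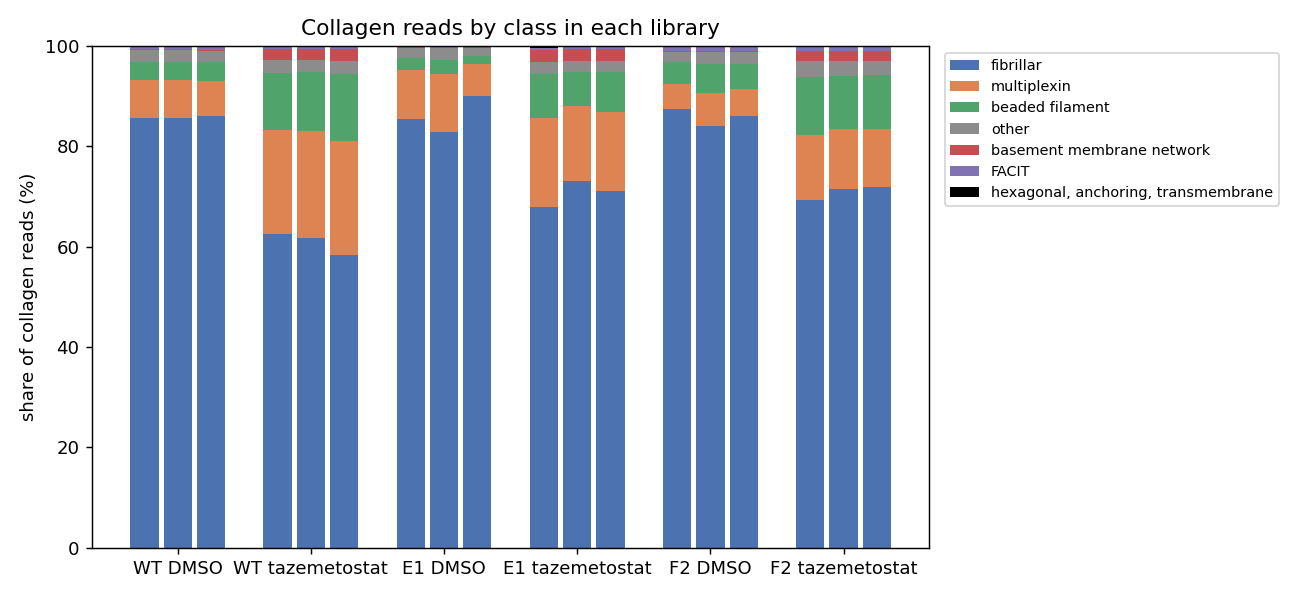
Stacked bars give the share of collagen reads (percent) from each class in each of the 18 libraries, 3 bars per group. Fibrillar genes hold 85.6 to 86.1% in WT with DMSO and 58.2 to 62.6% with tazemetostat, and multiplexin, type VI (beaded filament) and type IV (basement membrane network) shares widen in all 3 lines.

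Of the 44 members, 33 had a mean of at least 10 normalized counts over the 18 libraries and were tested with limma on log2(value + 1). Calls required an adjusted p under 0.05 together with a log2 change of 1 or more in either direction. In WT, 19 members were higher with tazemetostat, where 14.5% of all tested genes were, and 5 were lower, against 6.77%. In E1, 17 were higher and 4 lower, against 11.3% and 3.78%. In F2, 19 were higher and 2 lower, against 13.3% and 3.71%. Members silent in DMSO passed the filter only through their tazemetostat values and so had to differ, and in each line 13 of the 33 had a mean under 10 with DMSO. Not all of the 13 were silent: COL1A2 was among them in F2, at 9.48, and COL20A1 in WT and E1, at 8.04 and 9.21. Among the other 20, the calls were 7 higher and 5 lower in WT, 5 higher and 4 lower in E1, and 6 higher and 2 lower in F2. Over the 33, WT had a median log2 change of 1.58, E1 of 1.39 and F2 of 2.01, beside 0.03, 0.02 and 0.02 over all tested genes, and it carries the same limit. For the 20, no share of all genes with a DMSO mean of at least 10 was counted. The shares of all tested genes above also include genes under that mean in DMSO. 17 members were called higher in all 3 lines, namely the 6 type IV chains, COL1A1, COL5A1, COL5A3, COL6A1, COL6A3, COL8A1, COL12A1, COL13A1, COL15A1, COL17A1 and COL22A1. COL3A1 and COL28A1 were called lower in all 3. The 3 comparisons share no library. Of the calls higher in WT, E1 and F2, 12, 12 and 13 were of members with a mean under 10 in DMSO. The share of all tested genes called in all 3 lines was not counted, so this overlap has no baseline.

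**Figure D2:**
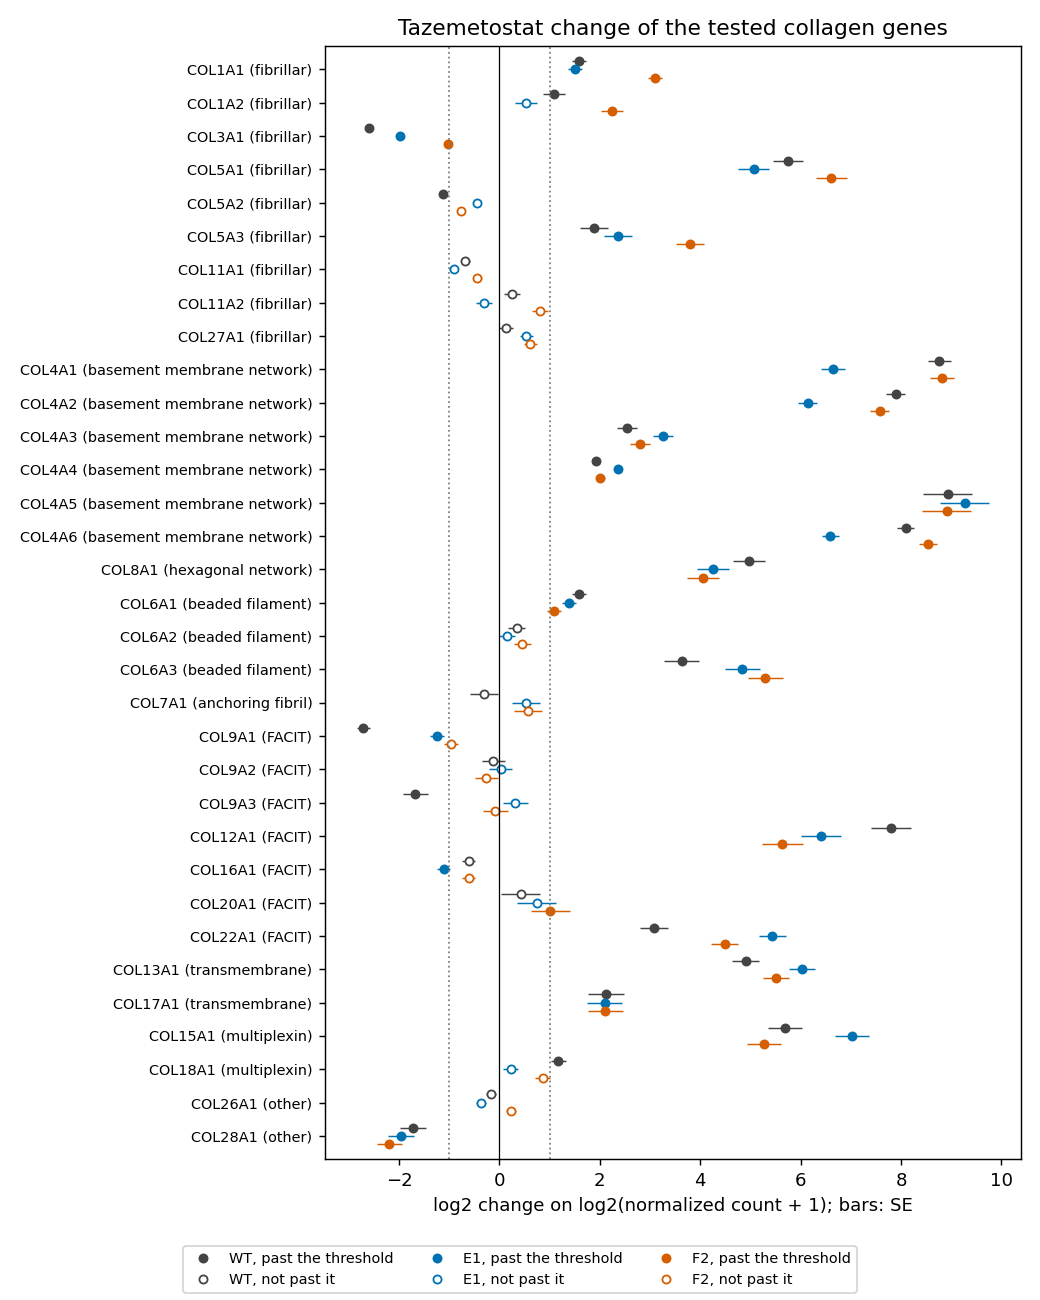
Points give the log2 change with tazemetostat against DMSO in each line for the 33 tested members, grouped by class, with bars for the SE, and filled points passed the threshold. Dotted lines mark the limit of 1 in either direction. The 6 type IV genes lie between 1.93 and 9.27, whereas COL3A1 and COL28A1 lie left of the lower limit in all 3 lines.

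All 6 type IV chains rose with tazemetostat in each of the 3 lines, 4 of them from the edge of detection. COL4A1, a chain of the ubiquitous network, had 0 reads in WT and F2 with DMSO and 1 read in E1. With tazemetostat its values were 406, 419 and 482 in WT, 142, 105 and 124 in E1 and 420.4, 421 and 514 in F2. That was at least 469.8-fold higher in WT and at least 418-fold higher in F2, taking 3 reads per group as the floor, and 392-fold (95% counting interval 70 to 15530.0) higher in E1. Its partner COL4A2 had no read in any DMSO library and reached 228, 226 and 259 in WT, 77.7, 70.6 and 61.2 in E1 and 187, 186 and 195 in F2. In both genes the 3 E1 libraries lay below all WT and F2 libraries. COL4A6 had no read in DMSO either and reached 276, 275 and 266 in WT, 88.4, 105 and 93.3 in E1 and 386, 364 and 359.8 in F2, again lowest in E1. COL4A5, which shares a start region with COL4A6, had 4, 2 and 4 reads in the WT, E1 and F2 DMSO groups. It reached 994, 932 and 935 in WT, 857, 870.4 and 868 in E1 and 1023, 1002 and 1018 in F2, so that the 3 lines lay closer together than for COL4A6, with E1 again lowest. The log2 changes of these 4 genes were 6.14 to 9.27. All 4 passed the filter only through their tazemetostat values, so the test had to find a difference and its p-values are not given.

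COL4A3 and COL4A4, the chains of the mature glomerular network, were already transcribed in DMSO. COL4A3 was 112, 106 and 161 in WT with DMSO and 666, 708 and 818 with tazemetostat. It went from 98.2, 73.4 and 85.7 to 932, 773 and 777 in E1 and from 50.2, 74.7 and 95.9 to 454, 519 and 541 in F2, with no overlap between treatments. The log2 changes were 2.55 ± 0.19 (SE), 3.26 ± 0.19 and 2.81 ± 0.19, with limma adjusted p of 1.4e-09, 4.7e-11 and 3.8e-10. COL4A4 went from 383 ± 16 to 1455 ± 9.64 in WT (SD, n = 3), from 310.1 ± 42 to 1589 ± 69.8 in E1 and from 294 ± 12.3 to 1191 ± 61.8 in F2, which was 3.81-fold, 5.11-fold and 4.06-fold higher. In this pair E1 was not the lowest line, and its COL4A3 and COL4A4 values with tazemetostat had the highest means of the 3 lines.

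**Figure D3:**
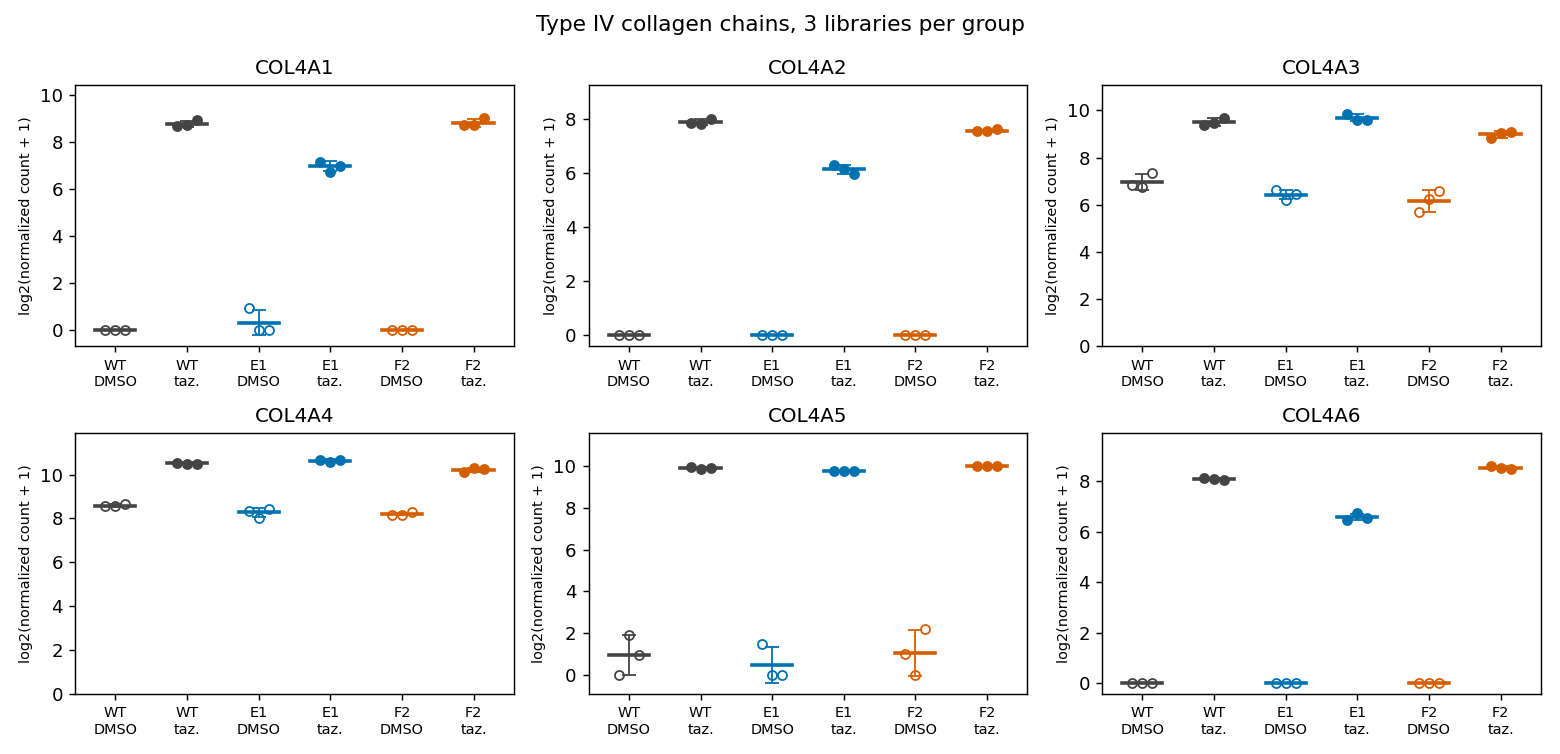
Each panel shows 1 type IV gene as log2(normalized count + 1) in each library, open for DMSO and filled for tazemetostat, with the group mean and SD. COL4A1, COL4A2, COL4A5 and COL4A6 had at most 3 reads in each of the 9 DMSO libraries, and COL4A3 and COL4A4 had more. E1 lies below WT and F2 with tazemetostat for COL4A1, COL4A2, COL4A5 and COL4A6.

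Among fibrillar collagens the chains moved in opposite directions. COL3A1, the single chain of type III collagen, was called lower in each line. It was 28423, 25919 and 25221 in WT with DMSO and 4286, 4392 and 4368 with tazemetostat, 6.11-fold lower. It went from 32565, 30248 and 30032 to 7474, 7818 and 8116 in E1 and from 27928, 26312 and 24667 to 13302, 12146 and 13122 in F2, 3.96-fold and 2.05-fold lower. All DMSO libraries lay above all tazemetostat libraries, and within tazemetostat the order from lowest to highest was WT, E1 and F2, without overlap. The log2 changes were -2.61 ± 0.06, -1.99 ± 0.06 and -1.03 ± 0.06 (SE), with limma adjusted p of 1.1e-16, 4.8e-15 and 7.6e-11. The F2 value is near the limit: it was -0.988 without F2 DMSO replicate 1 and -0.992 without F2 tazemetostat replicate 2, neither of which is a call. COL5A2, an α2 chain of type V and the neighbour of COL3A1 on chromosome 2, went from 26949 ± 274 to 12308 ± 512 in WT, lower by a log2 change of -1.13 ± 0.07 (limma adjusted p 1.2e-10). Its changes in E1 and F2, -0.44 and -0.77, did not reach the limit, although the treatments did not overlap. COL11A1, at 147714 ± 2991 in WT with DMSO, was 92033 ± 3136 with tazemetostat, and its log2 changes of -0.68, -0.91 and -0.44 in WT, E1 and F2 were short of the limit too, again without overlap. Without E1 DMSO replicate 2, the lowest of its group, the E1 value was -1.02 and a call.

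Of type I collagen, a trimer of COL1A1 and COL1A2 chains, COL1A1 was called higher in all 3 lines and COL1A2 in WT and F2. COL1A1 was 721, 620.1 and 600.0 in WT with DMSO and 1922, 1999 and 1878 with tazemetostat. It went from 671, 544 and 402 to 1659.8, 1411 and 1439 in E1 and from 615, 771 and 796 to 6839, 6101 and 5673 in F2. The F2 tazemetostat libraries were the highest by far, and the log2 changes were 1.58 ± 0.14, 1.50 ± 0.14 and 3.10 ± 0.14 (SE; limma adjusted p 1.2e-08, 3.7e-08 and 6.5e-13). COL1A2 depended on the line in DMSO as well: it was 115, 110.3 and 84.2 in WT, 230.4, 339.8 and 312 in E1 and 9.22, 8.3 and 10.9 in F2, with no overlap between lines. With tazemetostat it was 199, 213 and 244 in WT, 379, 457 and 426 in E1 and 68, 31.3 and 52.7 in F2, so that the order of the lines was the same. It was called higher in WT (1.08 ± 0.22, limma adjusted p 0.00034) and F2 (2.24 ± 0.22, 7.2e-08), whereas the E1 change was 0.53 ± 0.22 with an adjusted p of 0.059. In E1 too the tazemetostat libraries lay above the DMSO libraries without overlap. The WT call is near the limit, at 0.94 without WT DMSO replicate 3 and 0.93 with all libraries scaled to the same total.

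Of the other type V chains, COL5A1 rose from the floor and COL5A3 from a low level. COL5A1, the chain found in most type V trimers, had 1, 1 and 0 reads in the WT, E1 and F2 DMSO groups and reached 67, 55.2 and 78.8 in WT, 41.5, 35.8 and 46.2 in E1 and 99, 93.9 and 98 in F2. It was 215-fold (95% counting interval 38.2 to 8543) higher in WT, 131-fold (95% counting interval 23.1 to 5218) in E1 and at least 89.4-fold in F2. COL5A3, a rarer α3 chain, went from 176, 114 and 89.9 to 413, 439.6 and 507 in WT, from 56.3, 53.1 and 23.4 to 234, 205 and 210.1 in E1 and from 16.4, 27 and 17 to 274, 269 and 315 in F2. The log2 changes of COL5A3 were 1.88 ± 0.28, 2.36 ± 0.28 and 3.80 ± 0.28 (SE), and treatments did not overlap in any line. Even with tazemetostat, COL5A2 remained 283 ± 57.9 times COL5A1 per kb in WT (SD, n = 3), 760.2 ± 104 times in E1 and 225 ± 10.9 times in F2. COL11A2, the α2 chain of type XI, and COL27A1, a fibrillar chain of cartilage, were not called in any line, with log2 changes of -0.30 to 0.81 and 0.13 to 0.62. COL2A1, the main cartilage collagen, and COL24A1 were below the mean of 10 and were not tested, with at most 23 and 7 reads in any group.

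Type VI collagen is assembled from COL6A1, COL6A2 and a long chain that is usually COL6A3, and its 3 main chains did not move alike. COL6A1 was 6635, 6589.7 and 6835 in WT with DMSO and 18549, 19496 and 22387 with tazemetostat, higher by 1.59 ± 0.14 on the log2 scale (SE), with a limma adjusted p of 1.6e-08. It went from 4368, 4219.6 and 2850.3 to 11289, 8146 and 10288 in E1 (1.39 ± 0.14) and from 6527, 8842 and 7648 to 17056, 15218 and 16296 in F2 (1.09 ± 0.14), without overlap. The F2 call falls just short of the limit, at 0.98, without F2 DMSO replicate 1. COL6A2, the next gene on chromosome 21, had log2 changes of 0.34 ± 0.17, 0.15 ± 0.17 and 0.45 ± 0.17 and no call. The ratio of COL6A1 to COL6A2 per kb went from 3.69 ± 0.119 to 8.73 ± 0.103 in WT, from 2.77 ± 0.225 to 6.55 ± 0.399 in E1 and from 2.77 ± 0.0631 to 4.29 ± 0.139 in F2. COL6A3 had 9, 4 and 4 reads in the DMSO groups and reached 48.3, 42.1 and 30.8 in WT, 62.8, 66.7 and 57.5 in E1 and 92.2, 78.7 and 111 in F2, and was called higher in each. It stayed far below COL6A1, which was 1929 ± 660.0 times COL6A3 per kb in WT, 589 ± 122 in E1 and 643 ± 91.1 in F2 with tazemetostat. The alternative long chains COL6A5 and COL6A6 had no read in DMSO and 13, 9 and 20 reads, and 71, 23 and 18 reads, in the WT, E1 and F2 tazemetostat groups, and were not tested.

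Members of the FACIT class also moved in opposite directions. COL12A1, which binds type I fibrils, had 2, 3 and 5 reads in the WT, E1 and F2 DMSO groups and reached 307, 319.9 and 321 in WT, 170.3, 141 and 143 in E1 and 119, 112 and 166 in F2. COL22A1, found at tissue junctions, had no read in DMSO and reached 4.93, 8.42 and 9.85 in WT, 41.5, 47.4 and 38.6 in E1 and 26.2, 21.2 and 17.6 in F2. Both were called higher in each line, COL22A1 being lowest in WT and COL12A1 highest there. COL9A1, a type IX chain that coats cartilage fibrils, fell from 753, 689 and 792 to 99.5, 108 and 133 in WT and from 146, 140.0 and 158 to 61.8, 51.3 and 75.4 in E1. Its log2 changes there were -2.71 ± 0.13 and -1.24 ± 0.13 (SE; limma adjusted p 1.9e-12 and 2.3e-07), and in F2, with 984, 959 and 1031 in DMSO and 543, 451 and 536 with tazemetostat, it was -0.96 ± 0.13 and short of the limit. Without F2 tazemetostat replicate 1 or 3 the F2 value was -1.01 or -1.001 and a call. Its partner COL9A3 went from 54.2, 51.8 and 56.8 to 10.8, 21.5 and 18.5 in WT, a log2 change of -1.67 ± 0.25, and was not called in E1 (0.32) or F2 (-0.08), nor was COL9A2 in any line (-0.26 to 0.02). COL16A1 was called lower in E1 alone (-1.11 ± 0.14), with -0.61 in WT and -0.61 in F2. COL20A1 was called higher in F2 alone (1.02 ± 0.39), and whether either differed between lines is given by the response differences below, where neither was called. The F2 call of COL20A1 was lost under DESeq2 (adjusted p 0.054) and without F2 DMSO replicate 1 (0.074) or 2 (0.14) or F2 tazemetostat replicate 2 (0.059) or 3 (0.14).

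Of the multiplexins, COL18A1, the source of the fragment endostatin, was abundant and COL15A1 was silent in DMSO. COL18A1 went from 18486, 17922 and 16569 to 37419.7, 39886 and 42374 in WT (1.18 ± 0.15, limma adjusted p 1.4e-06). It was not called in E1, with 23594, 23182 and 14152 and then 25886, 20981 and 22721, nor in F2, with 10852, 14214 and 11464 and then 23627, 20993 and 21420.2, where treatments did not overlap. Without E1 DMSO replicate 3 the E1 response of COL18A1 was below that of WT by a call, at -1.19, in place of -0.95. COL15A1 reached 58.1, 39.3 and 57.9 in WT, 122, 139 and 127 in E1 and 64.1, 46.4 and 56.4 in F2 and was highest in E1. Among transmembrane collagens, COL13A1, an adhesion molecule, had 0, 1 and 0 reads in the WT, E1 and F2 DMSO groups and reached 27.6, 35.5 and 24.6 in WT, 83, 84.1 and 72.5 in E1 and 46.6, 41.4 and 46.2 in F2. COL17A1, a hemidesmosome protein, had 10, 25 and 12 reads in the DMSO groups and log2 changes of 2.12, 2.10 and 2.11. COL8A1, of the hexagonal networks under endothelia, reached 34.5, 24.3 and 33.3 in WT, 20.2, 19.3 and 15.1 in E1 and 15.5, 17.2 and 29.6 in F2 from at most 1 read per DMSO group. COL15A1, COL13A1, COL17A1 and COL8A1 were called higher in each line. COL28A1, a collagen of peripheral nerve, was called lower in each, with 61.1, 62.2 and 88 and then 17.7, 20.6 and 23.4 in WT, 25, 16.4 and 36 and then 6.39, 5.8 and 4.71 in E1, and 82, 77.8 and 114 and then 22.3, 17.2 and 17.6 in F2. COL26A1, at 5421 in WT with DMSO, and COL7A1, the anchoring fibril chain of skin, at 154, were not called in any line.

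The 11 members left untested for a mean under 10 were COL2A1, COL6A5, COL6A6, COL8A2, COL10A1, COL14A1, COL19A1, COL21A1, COL23A1, COL24A1 and COL25A1. COL25A1, a neuronal membrane collagen, had 8 and 64 reads in WT without and with tazemetostat, 2 and 13 in E1, and 8 and 16 in F2. In WT COL14A1, a FACIT member, had 0 and 42. COL14A1 had 0 reads in DMSO in the clones too, and 12 in E1 and 36 in F2 with tazemetostat. COL23A1 had 1 read in all 18 libraries together. With no filter on low values, 31 members were called in WT, 26 in E1 and 26 in F2, in place of 24, 21 and 21, beside 16.2%, 11.5% and 13.3% of the 35344 genes then tested.

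In DMSO both clones had collagens called against WT, E1 more than F2. Of the 33 tested members, E1 had 2 higher than WT, where 2.35% of all tested genes were, and 5 lower, against 2.69%. F2 had none higher, against 0.885%, and COL1A2 and COL5A3 lower, against 2.09%. Higher at an unadjusted p under 0.05 were 5 members with limma, 4 with edgeR and 5 with DESeq2, and none of the tools called one. COL1A2 moved in opposite directions: it was 2.82-fold higher in E1 (1.49 ± 0.22, limma adjusted p 6e-05) and 11-fold lower in F2 (-3.31 ± 0.22, 4.3e-09). COL5A3 was lower in both, by log2 changes of -1.54 ± 0.28 and -2.57 ± 0.28. E1 was also lower for COL9A1, at 146, 140.0 and 158 against 753, 689 and 792 in WT (-2.32 ± 0.13), for COL9A3 (-1.78 ± 0.25), COL28A1 (-1.46 ± 0.25) and COL16A1 (-1.11 ± 0.14). It was higher for COL17A1 (1.12 ± 0.35, limma adjusted p 0.028), a call that edgeR (adjusted p 0.095) and DESeq2 (0.12) did not make and that was lost without WT DMSO replicate 1 or 2 or E1 DMSO replicate 1 or 2 (adjusted p 0.14, 0.072, 0.11 and 0.082). With only the E1 and WT DMSO groups in the fit, COL17A1 (adjusted p 0.12), COL5A3 (0.091) and COL28A1 (0.051) lost the call in E1. These comparisons share the WT libraries.

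The clones also differed from each other in DMSO. Against F2, E1 had 2 members higher, against 4.05% of all tested genes, and 6 lower, against 3.52%. COL1A2 was 31.1-fold higher in E1 (4.80 ± 0.22, limma adjusted p 6.1e-12), the largest difference between lines among tested members in DMSO. COL9A1 (-2.74 ± 0.13), COL9A3 (-1.85 ± 0.25), COL28A1 (-1.83 ± 0.25) and COL16A1 (-1.74 ± 0.14) were lower in E1, as were COL6A1 (-1.02) and COL6A2 (-1.02). Both type VI calls were lost without E1 DMSO replicate 3 (-0.83 and -0.76) or F2 DMSO replicate 2 (-0.92 and -0.90). COL5A3, at 1.04, was called higher in E1 although the libraries of E1 and F2 overlapped, and it lost the call without F2 DMSO replicate 1 (0.91) or 3 (0.94) or E1 DMSO replicate 1 (0.82) or 2 (0.86).

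With tazemetostat the lines differed in members that were near 0 in DMSO and in others. Of the 33 tested, 12 had a mean under 10 in each DMSO group and could hardly differ between lines there. They made 8 of the 12 calls in E1 against WT with tazemetostat, 3 of the 9 in F2 against WT and 5 of the 12 in E1 against F2. The other 21 made 4, 6 and 7 calls with tazemetostat and 6, 2 and 8 with DMSO. Against WT, E1 had 4 members higher, beside 5.4% of all tested genes, and 8 lower, beside 5.95%. F2 had 7 higher, beside 7.31%, and 2 lower, beside 4.97%. Against F2, E1 had 2 higher, beside 2.39%, and 10 lower, beside 4.43%. In E1, COL22A1 was 5.6-fold higher than in WT (2.36 ± 0.27). Its mean over the 18 libraries was 12, near the filter of 10, with 0 reads in DMSO. It passed through its tazemetostat values, highest in E1, so its test is not independent of the filter. COL6A6 and COL25A1, highest in WT with tazemetostat, were under the filter and not tested. COL4A1 was 3.5-fold lower in E1 than in WT (-1.81 ± 0.23, limma adjusted p 3.8e-06) and COL4A2 3.39-fold lower (-1.75 ± 0.19, 3.7e-07). COL28A1 (-1.70 ± 0.25) and COL16A1 (-1.61 ± 0.14) were lower in E1 too, as they had been in DMSO, and COL4A6 was 2.85-fold lower (-1.50 ± 0.17). In F2, COL9A1 was 4.55-fold higher than in WT (2.16 ± 0.13), COL1A1 3.2-fold (1.68 ± 0.14), COL9A3 3.22-fold (1.67 ± 0.25) and COL3A1 2.96-fold (1.56 ± 0.06), and COL1A2 was 4.26-fold lower (-2.15 ± 0.22). Between the clones, COL1A2 was 8.29-fold higher in E1 (3.09 ± 0.22), and COL9A1 8.12-fold lower (-3.01 ± 0.13). COL16A1 (-2.24 ± 0.14), COL1A1 (-2.04 ± 0.14) and COL4A6 (-1.94 ± 0.17) were lower in E1 than in F2 as well. COL13A1 (1.43 ± 0.26) and COL15A1 (1.33 ± 0.34) were higher in E1 than in WT. COL17A1 (1.09 ± 0.35) was higher too, and lost the call without WT tazemetostat replicate 1 or 3 or E1 tazemetostat replicate 3 (adjusted p 0.074, 0.066 and 0.072). COL5A3 (-1.06 ± 0.28) and COL6A1 (-1.03 ± 0.14) were lower in E1, and both fell short of the limit without WT tazemetostat replicate 3 (-0.98 and -0.95), as did COL6A1 without E1 tazemetostat replicate 2 (-0.90). COL7A1 was higher in F2 than in WT (1.11 ± 0.28) except without WT tazemetostat replicate 1 (0.94) or 2 (0.9993), and was just short of the limit in E1 (0.9973). COL12A1, lower than WT in both clones (-1.06 and -1.27), lost the call in both with a pseudocount of 0.5, with adjusted p of 0.12 and 0.064, and in E1 also without WT tazemetostat replicate 1, 2 or 3 or E1 tazemetostat replicate 2 or 3 (0.069 to 0.085).

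**Figure D4:**
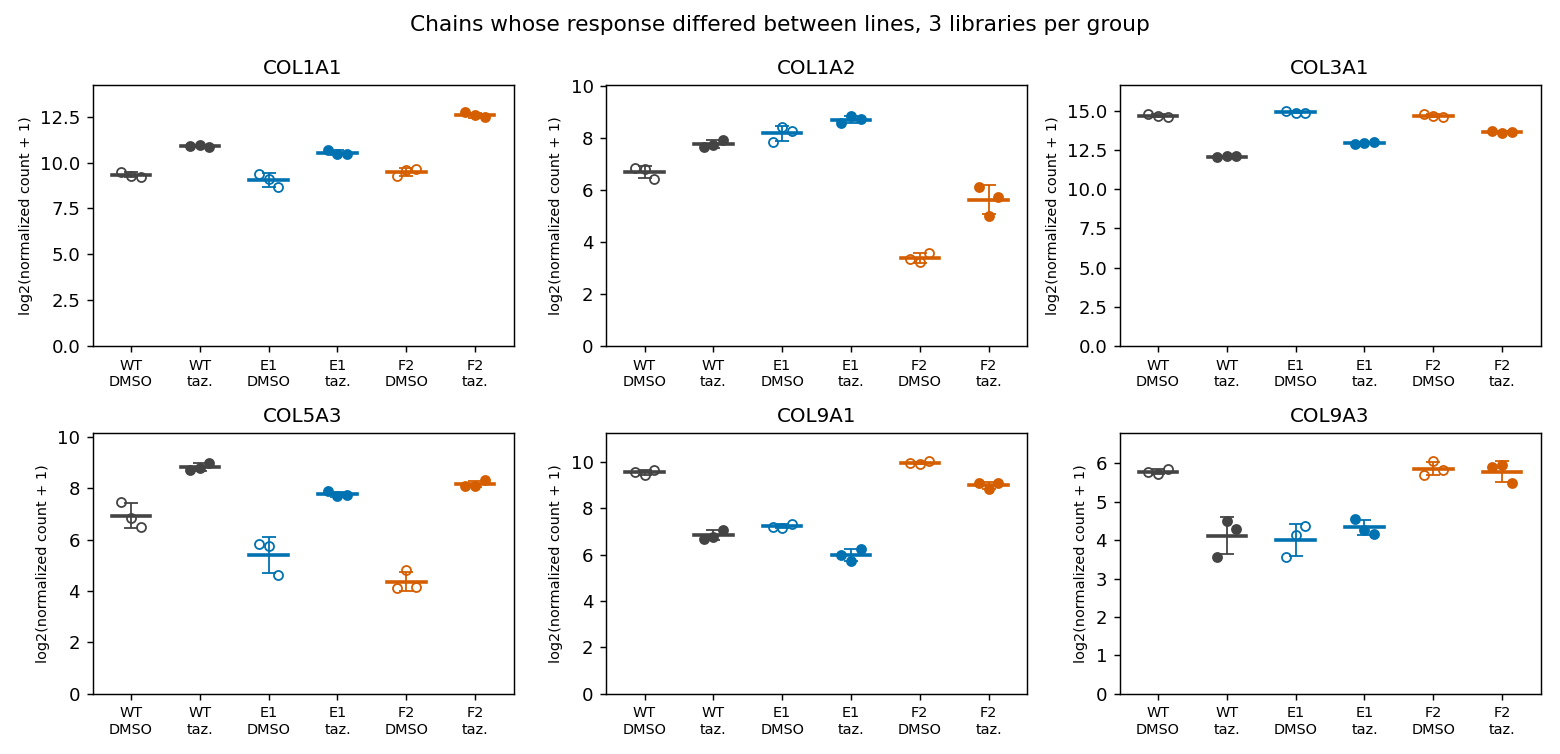
Each panel shows 1 gene as log2(normalized count + 1) in each library, open for DMSO and filled for tazemetostat, with the group mean and SD. COL1A2 is lowest in F2 under both treatments, COL1A1 is highest in F2 with tazemetostat, and COL9A3 is called lower in WT only, with 51.8 to 56.8 normalized counts in DMSO and 10.8 to 21.5 with tazemetostat.

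The response difference, the log2 change in a clone minus that in WT, tests whether the change with tazemetostat differed between them. In E1, 5 members had a higher response than in WT, beside 4.79% of all tested genes, and 3 a lower one, beside 5.21%. In F2, 8 had a higher response, beside 4.82%, and 1 a lower one, beside 2.66%. Among members transcribed in DMSO, the type IX chains COL9A1 and COL9A3 had a higher value in both clones: 1.47 ± 0.19 and 1.75 ± 0.19 for COL9A1, and 1.99 ± 0.35 and 1.60 ± 0.35 for COL9A3, in E1 and F2. In E1 both were already lower than in WT with DMSO, whereas in F2 with DMSO COL9A1 lay above WT (959 to 1031 against 689 to 792) and COL9A3 overlapped it. COL3A1 fell less in F2 than in WT, by 1.57 ± 0.09 (limma adjusted p 1.3e-09), and in E1 the difference was 0.62 ± 0.09, short of the limit. COL1A1 (1.51 ± 0.20), COL1A2 (1.16 ± 0.31) and COL5A3 (1.91 ± 0.39) rose more in F2 than in WT. COL5A3 and COL1A2 had the lower DMSO level in F2. The COL1A2 difference fell short of the limit without F2 tazemetostat replicate 1 (0.91).

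For members at the floor in DMSO the response difference rests mainly on the tazemetostat levels, since log2(value + 1) is then 0 or near it in both lines. That holds for COL4A1, COL4A2, COL4A6, COL13A1, COL15A1 and COL22A1 in E1 and for COL22A1 in F2, although the 1 DMSO read of COL4A1 and of COL13A1 in E1 entered the values too. For COL12A1 and COL6A3 a few DMSO reads weighed more, since F2 minus WT with tazemetostat was -1.27 and 1.21, against the response differences of -2.16 and 1.67. The values of COL4A1, COL4A2 and COL4A6 were -2.12 ± 0.33, -1.75 ± 0.26 and -1.50 ± 0.25 in E1, with limma adjusted p of 6.9e-05, 4.8e-05 and 0.00012. On recovered reads edgeR and DESeq2 called only COL9A1 and COL9A3 among the 8 in E1. Both tools still called the difference between E1 and WT with tazemetostat for COL4A1, COL4A2, COL4A6, COL13A1, COL15A1 and COL22A1. COL13A1 (1.12 ± 0.37) and COL15A1 (1.33 ± 0.48) were the least firm in E1, with adjusted p of 0.025 and 0.038. COL22A1 had 2.36 ± 0.39 in E1 and 1.40 ± 0.39 in F2, and it passed the filter through tazemetostat values that were highest in E1. The COL13A1 response call was lost without WT tazemetostat replicate 3 (adjusted p 0.056) or E1 DMSO replicate 2 (0.062) or 3 (0.057), and the COL15A1 call without any single library among the 12 except WT tazemetostat replicates 1 and 3 and E1 DMSO replicate 3 (0.052 to 0.095). In F2, COL6A3 (1.67 ± 0.49) was not called by DESeq2 (adjusted p 0.077), and COL12A1 (-2.16 ± 0.57) by neither edgeR (0.084) nor DESeq2 (0.078).

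Chains that assemble together were compared within each library as a ratio per kb of exon, which cancels the scaling of the library. COL1A1 was 7.2 ± 0.855 times COL1A2 in WT with DMSO (SD, n = 3), 2.2 ± 0.977 times in E1 and 88 ± 15.6 times in F2. With tazemetostat the ratios were 10.1 ± 1.2, 4.11 ± 0.771 and 153 ± 59.8. No group overlapped another line under the same treatment, and F2 was the highest throughout. The head-to-head pairs differed among themselves with tazemetostat. COL4A1 was 2.4 ± 0.0556 times COL4A2 in WT, 2.33 ± 0.355 in E1 and 3.12 ± 0.288 in F2, so that E1 and WT overlapped although both genes were lower in E1. COL4A5 was 2.74 ± 0.0848 times COL4A6 in WT, 7.11 ± 0.583 in E1 and 2.15 ± 0.0714 in F2, so that all E1 libraries lay above the others. COL4A4 was 2.83 ± 0.504 times COL4A3 in WT with DMSO and 1.82 ± 0.196 with tazemetostat, 3.29 ± 0.306 and 1.75 ± 0.145 in E1, and 3.85 ± 1.16 and 2.14 ± 0.11 in F2, lower with tazemetostat in each line without overlap. COL11A1 was 4.18 ± 0.298 times COL3A1 in WT with DMSO and 15.9 ± 0.603 times with tazemetostat. In all, 60 such comparisons were made, and every pair of groups without overlap had an exact two-sided permutation p of 0.1, the smallest that 3 against 3 libraries allow, or 0.12 after Benjamini-Hochberg adjustment. Exon lengths came from all exons of a gene in another annotation, not from 1 transcript, which shifts a ratio by the same factor in all libraries. The size of a ratio is therefore rough, whereas its differences between libraries are not affected.

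**Figure D5:**
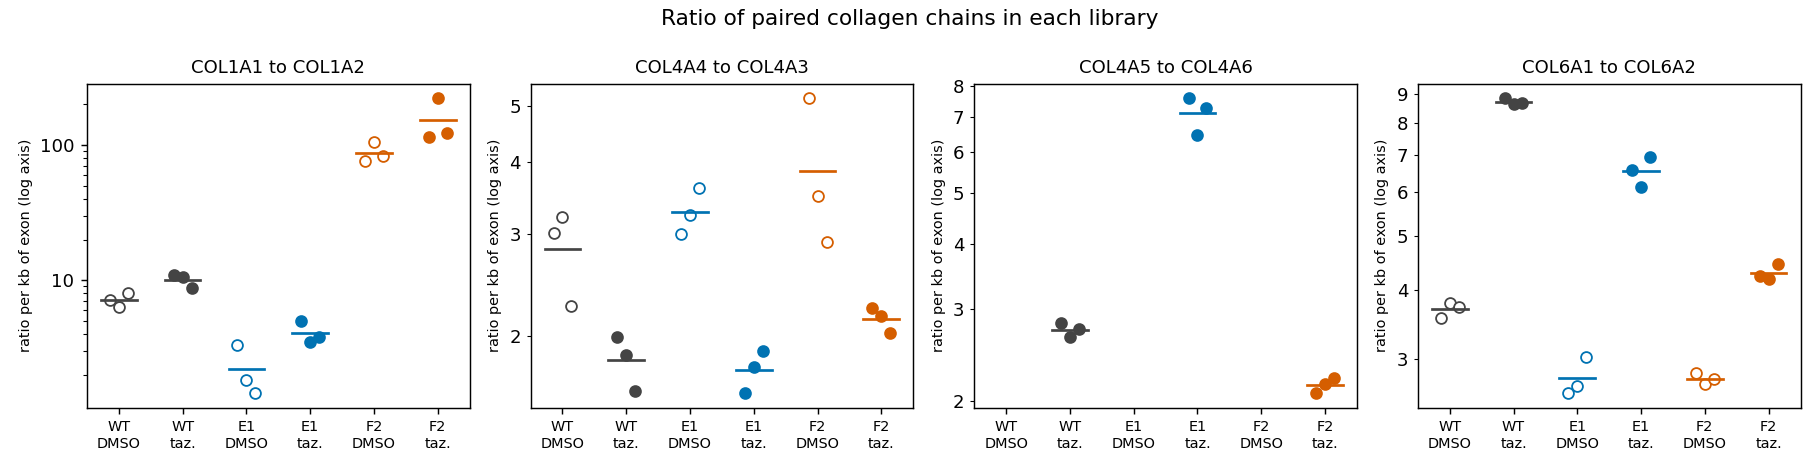
Each panel shows the ratio of 2 chains per kb of exon in each library on a log axis, open for DMSO and filled for tazemetostat, with the group mean as a line; groups where a chain has 3 reads or fewer are left blank. The COL1A1 to COL1A2 ratio is highest in F2, and the COL4A5 to COL4A6 ratio with tazemetostat is 6.46 to 7.59 in E1 and 2.07 to 2.82 in WT and F2.

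Genes that make, process, bind or degrade collagen were followed as a list of 62, of which 49 were tested. With tazemetostat 16 were higher and 2 lower in WT, 12 and 0 in E1, and 18 and 1 in F2, beside the same shares of all genes as above. In each line 7 of the 49 had a mean under 10 with DMSO and passed the filter through their values in other groups. The 7 were not the same in each line, since a gene for propeptide removal was among them in E1 only. Among the other 42 the calls were 9 higher and 2 lower in WT, 5 and 0 in E1, and 11 and 1 in F2. For these 42 no matching share of all genes was counted. Over the 49, WT had a median log2 change of 0.60, E1 of 0.15 and F2 of 0.59. No list member was called lower in E1 by limma, edgeR or DESeq2, and 8 were lower at an unadjusted p under 0.05 with limma, 9 with edgeR and 9 with DESeq2. The largest rises included receptors, collagenases and proteins that bind collagen. ITGA2, an integrin subunit that binds collagen, had 0 reads in WT and F2 with DMSO and stood at 1363 ± 63.9 in WT, 3322 ± 212 in E1 and 579 ± 68.7 in F2 with tazemetostat. ITGA1, another collagen receptor, went from 7.29 ± 2.06 to 1398 ± 91 in WT and from 8.46 ± 4.09 to 941 ± 44.7 in E1. MMP1, an interstitial collagenase, reached 938 ± 144 in WT, 105 ± 21.1 in E1 and 76.6 ± 7.18 in F2. MMP2, a gelatinase, reached 236 ± 9.49 in F2. LUM, a proteoglycan that binds fibrils, reached 325 ± 37.5, 49.8 ± 8.77 and 178 ± 16.7 in WT, E1 and F2, and SPARC, a matrix protein that binds collagen, went from 105 ± 4.52 to 10549.5 ± 533 in F2. ADAMTS3, which trims procollagen, fell by 1.06 on the log2 scale in WT and 1.29 in F2, and LOXL3, a crosslinking enzyme, fell by 1.23 in WT. SERPINH1, the collagen chaperone, and P4HB, a subunit of prolyl hydroxylase, were named after their values were seen. Neither was called, with log2 changes of 0.57 and 0.60 in WT, -0.12 and -0.0024 in E1, and 0.59 and 0.57 in F2.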

How the data were processed

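RNA-seq of 18 libraries, 3 biological replicates in each of 6 groups, was analysed. Strand-specific poly(A) libraries were read as paired ends of 50 bases, per the labels' protocols. The submitters' processing notes name Trim Galore 0.4.4, STAR 2.6.0a, HTSeq, DESeq2 and hg19, and the annotation and the strand setting of the counting are not given in the sources used here. Reads of overlapping or antisense genes may therefore be shared. The authors deposited a table of normalized counts, a linear signal that is the gene's reads divided by a library factor. Multiplied by that factor, 100% of values were whole within 0.001 reads, and the factors equalled DESeq2's median-of-ratios factors, so the authors' scaling assumes that most genes did not change.

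Genes with a mean of at least 10 over the 18 libraries were tested with limma 3.58.1 (R 4.3.3) on log2(value + 1), which understates the change of low genes. One fit of the 6 group means with a trended prior gave 11 comparisons, each adjusted by Benjamini-Hochberg over all 16154 genes tested. Calls required a log2 change of 1 or more in either direction besides an adjusted p under 0.05. The p-values set differences of group means against a spread estimated from these libraries only, pooled over the 6 groups and moderated over all genes tested. Folds are ratios of means, or bounds against a floor of 3 reads per group where the lower group had none, or carry 95% counting intervals, which cover counting error only. Library depths were 25709489 to 39314860 reads. Some called members lay at that floor in DMSO, and COL22A1 had only 22 reads in the WT tazemetostat group.

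The collagen genes and all gene lists were chosen with earlier results of these data known. Values per library were given for the 12 members with the largest called change with tazemetostat, the 5 largest in each comparison of clones and each response difference, types I, III, V and VI, and the type IV pairs. From the handling list, the 4 largest rises and falls per line were named. Alternatives were other pseudocounts, filters, scalings and designs, each library left out, and edgeR 4.0.16 and DESeq2 1.42.0 on the recovered reads. The limma script was tested on simulated data. Deviations of same-numbered replicates had positive mean correlations at all 3 numbers for F2 against WT in DMSO (0.182, 0.108 and 0.375). The same held for tazemetostat against DMSO in WT (0.0963, 0.0496 and 0.315) and for the F2 response (0.130, 0.0170 and 0.233). In every other comparison at least 1 was negative. No label says that the numbers pair libraries, so the main fit had no block, and a replicate block was among the alternatives. Promoter sequences are RefSeq's, and exon lengths were used only per kb. The marker PECAM1 was not analysed here.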

Additional observations from a re-analysis of the deposited data

Results flagged for a closer look

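The change with tazemetostat differed from that in WT by the test of the difference itself for 17 pairs of member and clone, given here as log2 differences of the 2 changes (limma, clone minus WT). In F2 the chains already transcribed in DMSO were COL1A1 (1.515), COL1A2 (1.157), COL3A1 (1.574), COL5A3 (1.914), COL9A1 (1.747) and COL9A3 (1.596). COL6A3 (1.665), COL12A1 (-2.161) and COL22A1 (1.404) were at or near 0 in DMSO in F2 and WT. In E1 COL9A1 (1.469) and COL9A3 (1.993) were transcribed in DMSO. COL4A1 (-2.12), COL4A2 (-1.755), COL4A6 (-1.503), COL13A1 (1.125), COL15A1 (1.328) and COL22A1 (2.358) had at most 1 read in any DMSO group of E1 and WT, so their values rest mainly on the tazemetostat levels. Both clones are compared with the same WT libraries.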

How the results depend on the processing

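Counts of called collagens were stable to the count tool and to scaling with tazemetostat against DMSO, and less so elsewhere. Requiring a mean of 50 left 15 calls in WT, 13 in E1 and 12 in F2 with tazemetostat, 4 in E1 against WT with DMSO, 7 with tazemetostat and 4 for the E1 response, since fewer members were tested. Without a limit on size there were 14 calls for E1 and 9 for F2 against WT with DMSO, 24 and 20 with tazemetostat, 22 for E1 against F2 with tazemetostat, and 39, 31 and 38 handling genes with tazemetostat in WT, E1 and F2. The same setting called 23.2% and 20.2% of all tested genes in the comparisons with DMSO, 51.8%, 53.1% and 34.5% in those with tazemetostat, and 64.2%, 46.8% and 52.2% with tazemetostat in WT, E1 and F2. With only the groups compared, E1 against WT with DMSO gave 4. edgeR and DESeq2 gave 2 and 2 calls for the E1 response. Leaving out 1 library gave 23 to 24 calls in WT, 21 to 22 in E1 and 18 to 22 in F2 with tazemetostat. It gave 6 to 7 for E1 against WT, 2 to 3 for F2 against WT and 6 to 7 for E1 against F2 with DMSO, and 10 to 13, 8 to 10 and 12 to 13 with tazemetostat. It gave 6 to 9 for the E1 response, 8 to 10 for the F2 response, and 18 to 20, 11 to 12 and 18 to 19 handling genes in WT, E1 and F2. Signs turned for COL6A2 in E1 without E1 DMSO replicate 3 (-0.11, limma adjusted p 0.47, in a leave-one-out range up to 0.30) and for the COL13A1 response in E1 with edgeR (-0.39, adjusted p 0.565); the cause was not tested. A replicate block left the 14 counts as they were (24, 21 and 21 with tazemetostat in WT, E1 and F2) and changed no call named. Scaling to the same total moved the median of all genes by -0.15 with tazemetostat in WT, 0.15 for F2 against WT with tazemetostat and 0.12 for the F2 response. Depth limits the members near 0 reads in DMSO, whose folds are bounds.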
